A study of Mus musculus with 6 samples.

Results

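The genes described here carry out antigen presentation by MHC class I: the light chain *B2m*, the heavy chains *H2-K1*, *H2-D1* and *H2-T23*, the peptide transporter genes *Tap1* and *Tap2*, the loading factor *Tapbp*, and the immunoproteasome subunits *Psmb8*, *Psmb9* and *Psmb10*. Their members are the probe sets whose platform annotation names exactly 1 gene and that gene is in this list of 10, which gave 25 of the 22690 probe sets on the array. These 25 probe sets read 9 of the 10 genes, out of 12394 genes that the array reads by a probe set of their own. *H2-T23* has none of its own, because each of its probe sets also names the pseudogene *H2-T-ps*.

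Class I molecules show short peptides from inside the cell to CD8+ T cells. Proteasomes cut proteins into peptides, the heterodimer of TAP1 and TAP2 pumps these into the endoplasmic reticulum, tapasin (the *Tapbp* product) bridges TAP to empty class I molecules, and a heavy chain folded with beta-2-microglobulin carries the peptide to the cell surface. In the immunoproteasome the interferon-inducible subunits PSMB8, PSMB9 and PSMB10 replace the catalytic subunits PSMB5, PSMB6 and PSMB7. Interferons raise most of these genes through the regulators IRF1 and NLRC5, and class I on thymic cells takes part in the selection of CD8 T cells.

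Expression was measured with Affymetrix mouse arrays in thymocytes of untreated 3-week-old C57BL6 mice. All 6 samples carried the CD3e-/- deletion, which stops thymocytes before the double positive stage. The 3 arrays labelled SCL-LMO1 came from mice that also carried the transgenes Sil-SCL, with SCL driven by the Sil promoter, and Lck-LMO1, with LMO1 driven by the Lck promoter, which is active in thymocytes. The 3 control arrays came from CD3e-/- mice without the transgenes. Nothing in the labels says how many animals stand behind an array, so p-values measure the spread between arrays only, and in a bulk sample fewer cells of a type and less RNA per cell cannot be told apart.

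The labels were first set against the genes they name. *Lmo1* was lower in arrays labelled SCL-LMO1, at 5.01 ± 0.14 against 6.75 ± 0.10 in the controls (log2, SD, n = 3 each), a difference of -1.74 with a limma adjusted p of 0.00161. *Tal1*, the mouse gene for SCL, stayed under the filter on low values, at 4.55 to 4.71 against 4.27 to 4.44. *Cpa3*, which the study lists among genes raised by SCL-LMO1, was also lower in arrays labelled SCL-LMO1. Groups are therefore called by their labels throughout, and exchanged labels would turn every sign given here. *Ptcra*, the pre-T cell receptor alpha chain gene, which the study describes as inhibited by SCL, was higher in arrays labelled SCL-LMO1. Its difference was 1.28 (SE 0.16, limma adjusted p = 0.0230). *Slc4a1*, which the study lists among genes lowered by SCL-LMO1, had a higher mean here, with overlap. *Cd3e* itself, the deleted gene, gave signal in all 6 arrays, at 8.41 to 8.72, which goes against a full loss of its transcript. Whether the probes lie outside the deleted part was not tested, so this probe set does not check the deletion. *Cd8a* and *Cd8b1* were under the filter. *Xist* and the Y-linked *Eif2s3y*, which mark female and male cells, were together high in SCL-LMO1 1 and SCL-LMO1 2, at 8.23 and 9.40 for *Xist* and 5.43 and 6.23 for *Eif2s3y*, and control 2 alone had low *Xist* (4.70) with high *Eif2s3y* (5.74). The array medians lay between 5.57 and 5.70, and the bacterial hybridization controls parted the arrays into a set with high controls (SCL-LMO1 1, control 2 and control 3) and a set with low controls (SCL-LMO1 2, SCL-LMO1 3 and control 1), which crosses the labels.

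The starts of the classical heavy chain genes, of *B2m*, and of *Tap1* with *Psmb9* are printed to show which elements known from class I promoters they hold. They are RefSeq sequences of build GRCm38.p6, 5′ to 3′, in lower case with the motif letters in capitals. The motifs, searched on both strands, are the kappa B site of class I promoters GGGATTCCC, the core of the interferon-stimulated response element (ISRE) as GAAANNGAA or, chosen after the sequences were seen, in its other reading GAANNGAAA, the X2 or cyclic AMP element core TGACG, and the Y box ATTGG. The first 3 sequences are the 200 bases before an annotated start: *H2-K1* at chr17:34000334-34000533 on the minus strand, *H2-D1* at chr17:35262894-35263093 on the plus strand and *B2m* at chr2:122147487-122147686 on the plus strand. The last is the 225 bases between the divergent starts of *Psmb9* and *Tap1* at chr17:34187331-34187555, read on the strand of *Tap1*.
H2-K1: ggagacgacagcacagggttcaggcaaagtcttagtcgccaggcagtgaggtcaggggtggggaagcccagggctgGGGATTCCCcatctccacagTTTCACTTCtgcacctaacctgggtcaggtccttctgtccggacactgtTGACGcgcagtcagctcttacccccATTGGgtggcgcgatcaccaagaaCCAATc
H2-D1: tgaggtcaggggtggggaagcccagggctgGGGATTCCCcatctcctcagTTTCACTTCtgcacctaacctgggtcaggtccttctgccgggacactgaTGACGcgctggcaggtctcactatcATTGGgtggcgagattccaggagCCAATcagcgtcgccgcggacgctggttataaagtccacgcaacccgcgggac
B2m: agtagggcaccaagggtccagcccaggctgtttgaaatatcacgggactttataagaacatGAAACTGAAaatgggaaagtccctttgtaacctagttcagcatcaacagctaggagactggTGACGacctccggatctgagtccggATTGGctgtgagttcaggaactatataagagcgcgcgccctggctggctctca
Psmb9-Tap1: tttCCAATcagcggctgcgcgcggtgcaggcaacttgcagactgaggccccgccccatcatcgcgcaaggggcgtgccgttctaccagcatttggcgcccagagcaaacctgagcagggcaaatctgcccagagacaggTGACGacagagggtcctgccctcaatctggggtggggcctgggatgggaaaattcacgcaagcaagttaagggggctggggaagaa

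The *H2-K1* and *H2-D1* stretches hold the same elements in the same order: the kappa B site, the ISRE core in its other reading, TGACG and a pair of Y boxes. Over 154 aligned bases 130 were identical (84.4%), with a longest identical run of 46 bases. The *B2m* stretch holds the ISRE core, TGACG and a Y box, without the kappa B letters. The stretch between *Psmb9* and *Tap1* holds TGACG and a Y box and neither reading of the ISRE core. Among 32851 promoters of 300 bases in the table, 0.353% hold the kappa B letters, 8.56% the ISRE core, 7.52% its other reading, 20.8% TGACG and 37.4% the Y box, so only the kappa B letters are rare. The 300-base windows of *Psmb8* and *Psmb10* hold none of these motifs, that of *Tapbp* holds 2 Y boxes, and that of *H2-T23* holds 1 ISRE core and 1 Y box. On chromosome 17, *Psmb9*, *Tap1*, *Psmb8* and *Tap2* follow each other with no other protein-coding gene between them. A motif match is a description of these letters and not a binding site.

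The design sets pre-leukemic thymocytes beside thymocytes without the oncogenes, and the comparison is read here for the class I genes. No class I gene passed the test. Among the listed genes with a probe set of their own, *Tap1* was the only one whose groups did not overlap, with lower values in arrays labelled SCL-LMO1. This was 1 of the 18 tested probe sets, near the 5.82% of all probe sets that were apart in this direction. The probe set that *H2-T23* shares with *H2-T-ps* was also lower in every array labelled SCL-LMO1 (-0.62, limma adjusted p = 0.307). Some class I-like genes outside the list, given below, were apart in this direction too. The heavy chains *H2-K1* and *H2-D1* had lower means, but their values followed individual arrays more than labels, and the 3 immunoproteasome genes lay within 0.17 of no difference on the log2 scale. Of the 25 probe sets, 18 passed the filter (at or above the 40th percentile of the array in at least 3 of the 6 arrays), and 7 did not. Those 7 are 4 of *H2-D1* (1427651_x_at, 1425614_x_at, 1451934_at and 1450170_x_at) and 3 of *Tap1* (1449803_x_at, 1448177_at and 1420274_at), with every value between 2.94 and 4.89.

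Of the 18 tested, 0 had a limma adjusted p under 0.05, against 14 of 13776 over the array (0.102%), 1 had an unadjusted p under 0.05, against 8.86% of all probe sets, and 0 were called by rank products at a percentage of false positives (pfp) under 0.1 or 0.01. Groups did not overlap, with arrays labelled SCL-LMO1 lower, for 1 of the 18 against 5.82% of all, and with them higher for 0 against 7.36%. A lower mean was found for 16 of the 18 against 50.2% of all, or for 7 of the 9 genes when each is read by its probe set of highest mean. The median difference of the 18 was -0.20 (range -0.61 to 0.17), beside -6.1e-04 over all tested probe sets, whose 5th and 95th percentiles were -0.32 and 0.51. The median of the 18 was -0.095 without control 2, -0.49 without control 3 and -0.32 when the arrays were normalized once more. The 18 are not independent: 9 read *H2-K1* or *H2-D1*, and 8 of those 9 have names ending in x_at, which marks probes that can match other genes. The count of lower means fell to 13 without control 1 and to 12 without control 2.

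**Figure D1:**
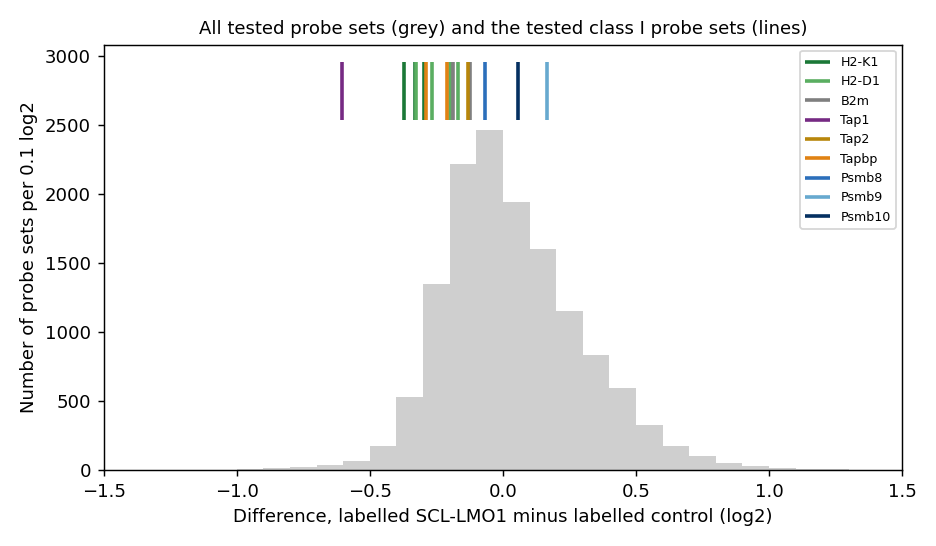
Histogram of the difference in mean log2 expression, arrays labelled SCL-LMO1 minus arrays labelled control, for the 13776 tested probe sets in bins of 0.1 (grey; y axis, number of probe sets), with a coloured line above it for each of the 18 tested class I probe sets. Most class I lines lie left of 0 within the body of the histogram, and *Tap1* at -0.61 lies farthest to the left of them.

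Among the heavy chains, the classical genes *H2-K1* and *H2-D1* encode the molecules that present peptides to most CD8 T cells. *H2-K1* (1425336_x_at) measured 12.004, 12.32 and 12.38 in arrays labelled SCL-LMO1 and 12.69, 12.84 and 12.06 in the controls. Controls 1 and 2 were the highest arrays, and control 3 lay among arrays labelled SCL-LMO1. The difference was -0.30 (SE 0.22, 95% interval -0.79 to 0.19, limma adjusted p = 0.673). The other *H2-K1* probe sets differed by -0.29 (1451931_x_at), -0.33 (1427746_x_at) and -0.37 (1450534_x_at), the last with a limma adjusted p of 0.600, and all 4 overlapped.

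*H2-D1* repeated this layout. Its brightest probe set (1425545_x_at) measured 10.95, 11.42 and 11.54 in arrays labelled SCL-LMO1 and 11.84, 11.91 and 10.95 in the controls, a difference of -0.27 (SE 0.27, 95% interval -0.87 to 0.34, limma adjusted p = 0.740). SCL-LMO1 1 and control 3 were thus the lowest arrays, 1 from each group. The only heavy chain probe set without the x_at ending, 1426324_at, measured 8.71, 9.02 and 8.94 against 9.65, 9.48 and 8.05, and its difference was -0.17 (SE 0.36, 95% interval -0.98 to 0.65). The remaining 3 tested *H2-D1* probe sets differed by -0.20 (1451784_x_at), -0.33 (1451683_x_at) and -0.19 (1452544_x_at).

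The array-to-array spread of the heavy chains was larger than their difference between labels. Over the 9 tested heavy chain probe sets, the mean deviation was -0.31, -0.091 and -0.011 in arrays labelled SCL-LMO1 and 0.34, 0.48 and -0.41 in the controls. The 36 pairs of these probe sets correlated over the 6 arrays with a median r of 0.84 (0.091 to 0.996), which probes shared between the genes can raise. The median difference of the 9 was -0.29 (range -0.37 to -0.17), and single arrays moved the values in both directions, without a call. The difference of *H2-K1* (1425336_x_at) was -0.53 without control 3, -0.14 without control 2 and -0.18 without SCL-LMO1 1, and that of *H2-D1* (1425545_x_at) was -0.57, -0.096 and -0.089 without the same arrays and -0.13 without control 1. Within the sets of low and high hybridization controls these probe sets differed by -0.34 and -0.45 for *H2-K1* and by -0.36 and -0.48 for *H2-D1*. Control 1 is the only control in the low set, and SCL-LMO1 1 the only array labelled SCL-LMO1 in the high set. Other *H2-D1* probe sets were uneven between the sets, at -0.66 and -0.060 (1426324_at) and -0.30 and -0.034 (1452544_x_at). The rest were even, at -0.32 and -0.33 (1451784_x_at) and -0.43 and -0.46 (1451683_x_at).

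*B2m*, the light chain that every classical class I molecule needs at the surface, measured 12.20, 12.09 and 12.41 in arrays labelled SCL-LMO1 and 12.24, 12.83 and 12.19 in the controls (1452428_a_at). Only control 2 stood above the others. The difference was -0.19 (SE 0.20, 95% interval -0.63 to 0.25, limma adjusted p = 0.748), and the second probe set (1449289_a_at) gave -0.12 (SE 0.18, limma adjusted p = 0.820). Within the sets of low and high hybridization controls the first probe set gave 0.0091 and -0.31. Without control 2 the differences turned to 0.017 and 0.040.

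*H2-T23* encodes the nonclassical Qa-1 molecule, which presents leader peptides of other class I chains to NK receptors, and can be followed only together with *H2-T-ps*. The probe set naming both (1449556_at) measured 9.91, 9.48 and 9.71 in arrays labelled SCL-LMO1 and 10.44, 10.31 and 10.20 in the controls. Every control was higher, as for 5.82% of all probe sets. The difference was -0.62 (SE 0.16, 95% interval -0.98 to -0.26, unadjusted p = 0.00365, limma adjusted p = 0.307), and it was -0.85 within the set with low hybridization controls and -0.34 within the set with high ones. The other probe set naming both stayed under the filter. The probe set naming *H2-K1* and *H2-D1* together differed by -0.29, in the same layout as its genes, and that naming *H2-Q5* and *H2-K1* by -0.17.

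Further shared probe sets read nonclassical genes of the Q and T regions. The probe set for *H2-Q6* and *H2-Q8* (1431008_at) measured 8.72, 8.84 and 9.07 in arrays labelled SCL-LMO1 and 10.50, 10.78 and 8.67 in the controls, a difference of -1.10 (SE 0.46, limma adjusted p = 0.540). Controls 1 and 2 stood far above the rest while control 3 was the lowest of all arrays. *H2-Q8* is among the genes that the study itself picked on these samples. The probe set for *H2-Q9* and *H2-Q7* differed by -0.68 with overlap (limma adjusted p = 0.487). The 2 tested probe sets for *H2-T9*, *H2-T22* and *H2-T10* differed by -0.39 with overlap and by -0.51 with every control higher (limma adjusted p = 0.519). In the second, SCL-LMO1 2 (8.45) and control 2 (8.47) were only narrowly apart, and 5.82% of all probe sets were apart in this direction.

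The list of other class I and class I-like heavy chains held 24 genes, of which 13 were measured by a probe set of their own and 7 were tested. None of the 7 passed the limma test, and 2 had an unadjusted p under 0.05, against 8.86% of all probe sets. All 7 had a lower mean in arrays labelled SCL-LMO1, against 50.2% of all. Their median difference was -0.16, beside -6.1e-04 over all tested probe sets. With arrays centred on their medians, or normalized once more, 6 of the 7 had a lower mean, against 41.8% and 53.8% of all. The median was -0.27 without SCL-LMO1 1 and -0.078 without SCL-LMO1 3, and -0.10 when normalized once more. *Cd1d1*, which presents lipids to NKT cells, measured 8.16, 8.80 and 8.73 against 9.31, 9.26 and 9.05 in the controls (difference -0.64, SE 0.19, limma adjusted p = 0.412). *H2-M3*, which presents N-formylated peptides, measured 8.02, 7.83 and 7.98 against 8.52, 8.21 and 8.45 (difference -0.45, SE 0.15, limma adjusted p = 0.440). For both, every control lay above every array labelled SCL-LMO1 (2 of 7, against 5.82% of all probe sets), whereas *H2-T3*, the thymus leukemia antigen, differed by -0.23 with overlap.

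**Figure D2:**
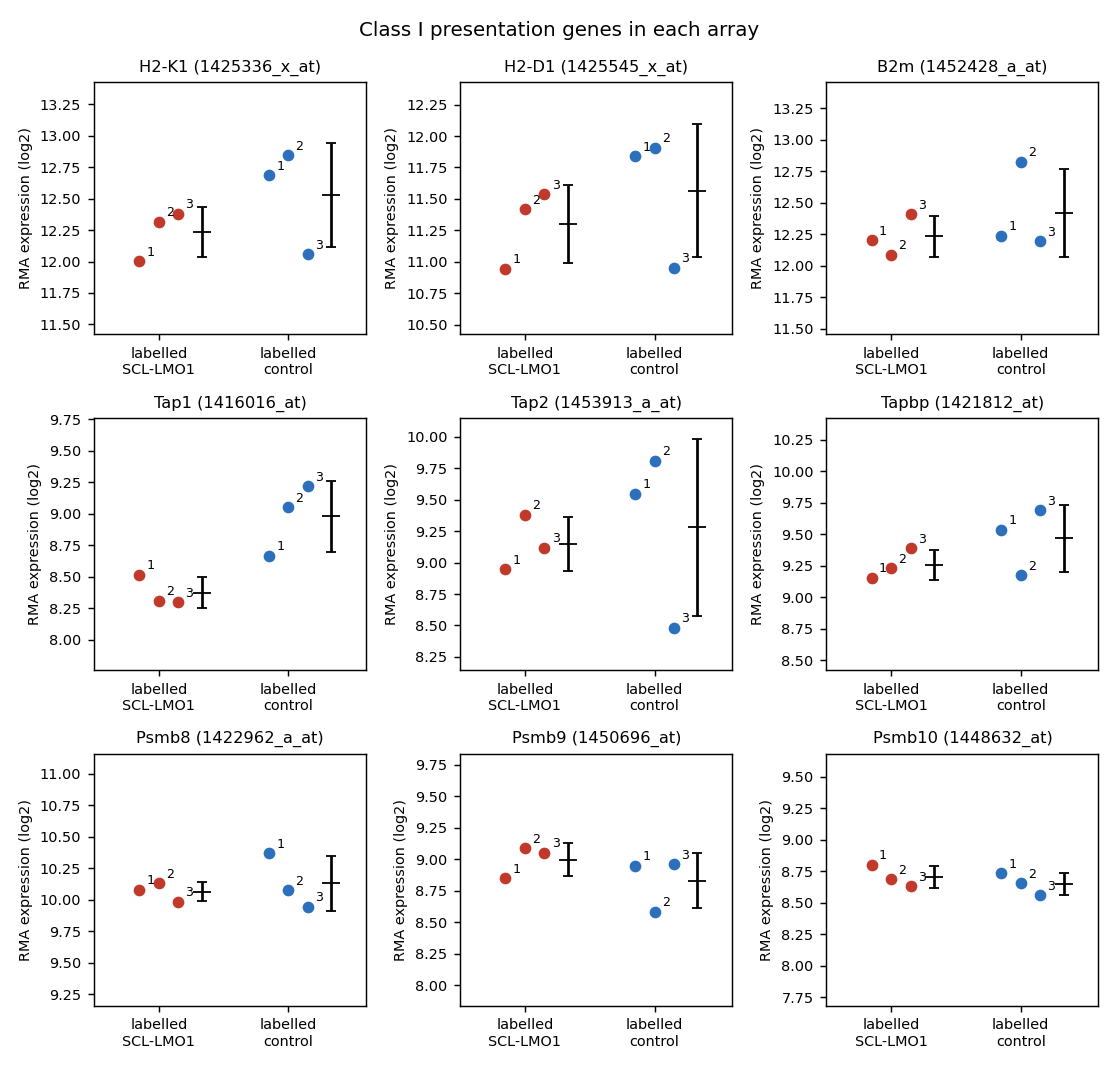
Log2 expression of the probe set of highest mean for each of the 9 measured genes, with a point for each array numbered by replicate (red, arrays labelled SCL-LMO1; blue, arrays labelled control) and the mean ± SD (n = 3) beside them; every panel spans 2 log2 units. Only *Tap1* shows groups that do not overlap, while control 3 falls below the other controls for *H2-K1*, *H2-D1* and *Tap2*.

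With 1 of the 18 tested class I probe sets apart, near the 5.82% of all, *Tap1* was the only transport and loading gene without overlap. Its tested probe set (1416016_at) measured 8.51, 8.31 and 8.30 in arrays labelled SCL-LMO1 and 8.67, 9.05 and 9.22 in the controls. Every control was higher, though SCL-LMO1 1 and control 1 were only a small step apart. The means were 8.37 ± 0.12 and 8.98 ± 0.28 (SD, n = 3 each), a 1.52-fold higher level in the controls and a difference of -0.61 (SE 0.17, 95% interval -0.999 to -0.21, unadjusted p = 0.00667, limma adjusted p = 0.374). The difference was -0.36 within the set with low hybridization controls and -0.62 within the set with high ones, and lay between -0.76 and -0.49 when each array was left out in turn. It passed the test only when limma weighted the arrays by their spread around the fit (-0.69, limma adjusted p = 0.0374). That fit gave SCL-LMO1 2 a weight of 4.94, against 0.46 to 1.37 for the other arrays, so it leans on SCL-LMO1 2. The other 3 *Tap1* probe sets were under the filter, so the gene rests on 1 probe set.

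*Tap2*, whose product forms the transporter together with TAP1, followed the heavy chains instead. It measured 8.95, 9.38 and 9.12 in arrays labelled SCL-LMO1 and 9.55, 9.81 and 8.48 in the controls (1453913_a_at), with control 3 the lowest array where it had been the highest for *Tap1*. The difference was -0.13 (SE 0.31, 95% interval -0.83 to 0.56, limma adjusted p = 0.885). *Tapbp* measured 9.16, 9.23 and 9.39 against 9.54, 9.18 and 9.69 (1421812_at), a difference of -0.21 (SE 0.17, limma adjusted p = 0.692). Its second probe set (1450378_at) measured 5.999, 5.75 and 5.77 against 5.98, 6.25 and 6.16, a difference of -0.29 (SE 0.15, 95% interval -0.63 to 0.045, limma adjusted p = 0.598). The groups overlapped in all 3 of these probe sets, and the median difference of the 4 transport and loading probe sets was -0.25.

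The chaperones and trimming enzymes that work beside TAP were listed as 11 loading partners, and all 11 were tested. None passed the limma test, and 1 had an unadjusted p under 0.05, against 8.86% of all probe sets. In arrays labelled SCL-LMO1, 8 had a higher mean, while 50.2% of all probe sets had a lower one. The median difference was 0.21, beside -6.1e-04 over all tested probe sets. Over the brighter probe sets that pass a filter at the 60th percentile, the median of all was 0.063. Normalized once more, 9 of them had a higher mean but the median fell to 0.062, and centred on array medians 10 did, with a median of 0.26. Centring also moved the median of all tested probe sets to 0.047, with 41.8% of them lower. With single arrays left out the median lay between 0.056 (without control 3) and 0.32 (without control 1), at 0.14 and 0.13 without SCL-LMO1 2 and SCL-LMO1 3. *Hspa5*, the chaperone BiP, differed by 0.67 (SE 0.31, limma adjusted p = 0.569). *Pdia3*, the ERp57 disulfide isomerase of the loading complex, differed by 0.60 (SE 0.44), and *Ganab*, a glucosidase that trims glycans of new glycoproteins, by 0.38 (SE 0.27). In all 3 genes control 3 was the lowest array. *Tapbpl*, the tapasin-related editor, was the only partner of the 11 whose groups did not overlap (5.82% of all probe sets were apart in this direction), with 7.14, 7.34 and 7.22 against 7.59, 7.50 and 7.53 in the controls (difference -0.31, SE 0.14, limma adjusted p = 0.561).

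The immunoproteasome genes lay close to no difference. *Psmb8*, which replaces PSMB5, measured 10.08, 10.13 and 9.98 in arrays labelled SCL-LMO1 and 10.37, 10.07 and 9.94 in the controls, a difference of -0.066 (SE 0.16, 95% interval -0.42 to 0.28, limma adjusted p = 0.887). *Psmb9*, which replaces PSMB6, measured 8.85, 9.09 and 9.05 against 8.95, 8.58 and 8.96, a difference of 0.17 (SE 0.16, 95% interval -0.19 to 0.53, limma adjusted p = 0.733). *Psmb10*, which replaces PSMB7, measured 8.80, 8.69 and 8.63 against 8.74, 8.65 and 8.56, a difference of 0.056 (SE 0.14, 95% interval -0.25 to 0.37, limma adjusted p = 0.891). The groups overlapped for all 3 genes. The intervals reach to -0.42 and 0.53, so equal levels are not shown. *Psmb10* turned to -0.086 when the arrays were normalized once more.

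The constitutive counterparts, the activator and the assembly factors were listed as 10 genes, of which 8 were tested. None passed the limma test, and 2 had an unadjusted p under 0.05, against 8.86% of all probe sets. In arrays labelled SCL-LMO1, 7 had a higher mean (5 when the arrays were normalized once more), while 50.2% of all probe sets had a lower one. The median difference of the list was 0.28. Over all tested probe sets the median was -6.1e-04, and over those that pass the filter at the 60th percentile it was 0.063. The list median fell to 0.13 when the arrays were normalized once more, to 0.15 without SCL-LMO1 3 and to 0.18 without SCL-LMO1 2. *Pomp*, the maturation factor of the proteasome core, measured 8.25, 8.27 and 8.40 against 8.25, 7.67 and 7.78 (difference 0.41, SE 0.18, limma adjusted p = 0.557). *Psmg1*, an assembly chaperone, differed by 0.37 (SE 0.16), and *Psmb7*, a constitutive catalytic subunit, by 0.31 (SE 0.19, limma adjusted p = 0.639). Of the 8 genes, *Pomp*, *Psmg1* and *Psmb5* had every array labelled SCL-LMO1 above every control (3 of 8, against 7.36% of all probe sets), *Pomp* only narrowly.

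**Figure D3:**
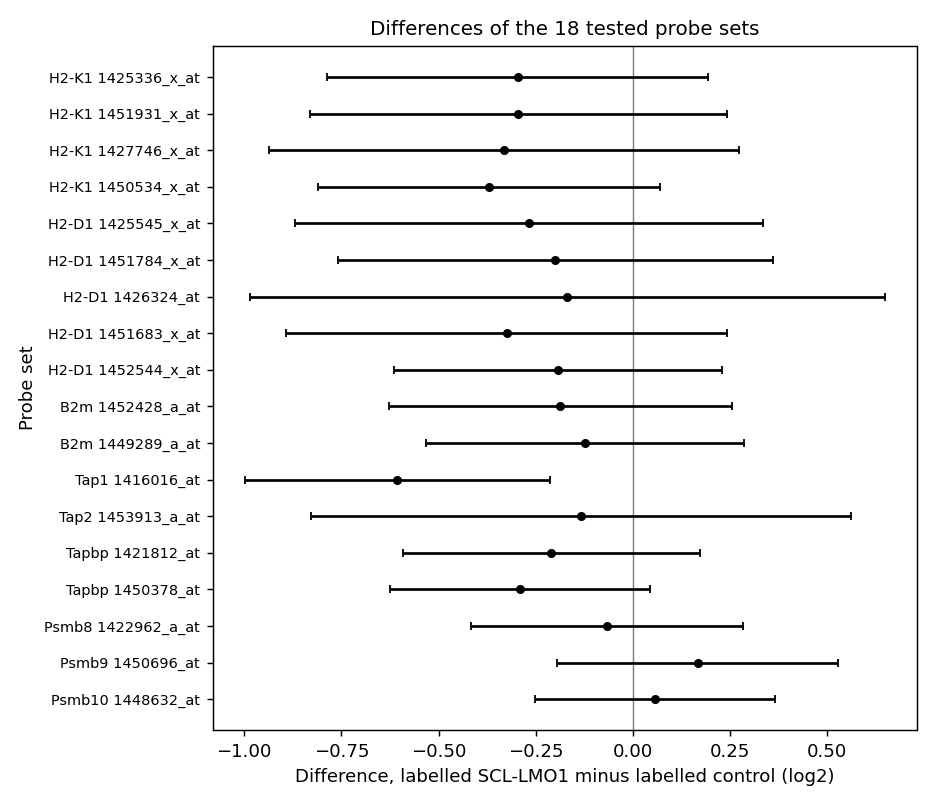
Difference in mean log2 expression, arrays labelled SCL-LMO1 minus arrays labelled control (x axis), with its 95% interval from limma, for each of the 18 tested class I probe sets (y axis, gene and probe set). The interval of *Tap1*, -0.999 to -0.21, lies wholly below 0 before adjustment, and the other 17 include 0.

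*Tap1* and *Psmb9* start 225 bases apart on opposite strands, yet their values did not run together. Their difference within each array, *Tap1* minus *Psmb9*, was -0.34, -0.78 and -0.76 in arrays labelled SCL-LMO1 and -0.28, 0.47 and 0.26 in the controls. Every control was higher. The difference between the labels, arrays labelled SCL-LMO1 minus controls, was -0.77, and a two-sided exact permutation test over the arrays gave p = 0.1, the smallest that 3 against 3 arrays allow. The same measure for *Tap1* minus *Tap2* differed by -0.47 with overlap (exact permutation p = 0.6). This pair of comparisons was chosen after the values were seen. *Tap1* was then known to be lower in every array labelled SCL-LMO1, and *Psmb9* to have a higher mean there. The separation of *Tap1* minus *Psmb9* is therefore no independent observation. With 3 against 3 arrays the permutation test could not pass the threshold used here, so it decides nothing about either pair. The adjusted p-values of the comparisons were 0.2 and 0.6, which do not correct for the choice of pairs.

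Over the 6 arrays, each gene read by its probe set of highest mean, *H2-K1* and *H2-D1* correlated with r = 0.98, and *Tap2* correlated with them at 0.89 and 0.90. *Tap1* correlated with *H2-K1*, *H2-D1* and *Tap2* at 0.13, -0.051 and -0.17, and with *Psmb9* at -0.58. *B2m* lay between, at 0.70 with *H2-K1*, and ran against *Psmb9* at -0.81. These coefficients describe 6 points that share their arrays and their normalization, and carry no test. Among 8543 genes outside the lists, those most like the mean of the 9 genes were *Ogfr* (r = 0.998), *Trgv1* (0.997), *Arid1a* (0.993), *Sqstm1* (0.982) and *Fut8* (0.979). *Trgv1*, a T cell receptor gamma gene segment, measured 9.70, 10.15 and 10.25 in arrays labelled SCL-LMO1 and 10.93, 11.16 and 9.84 in the controls. Its lowest arrays, SCL-LMO1 1 and control 3, are those of the mean it was matched to. This likeness was the ground of its selection and is no further observation.

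**Figure D4:**
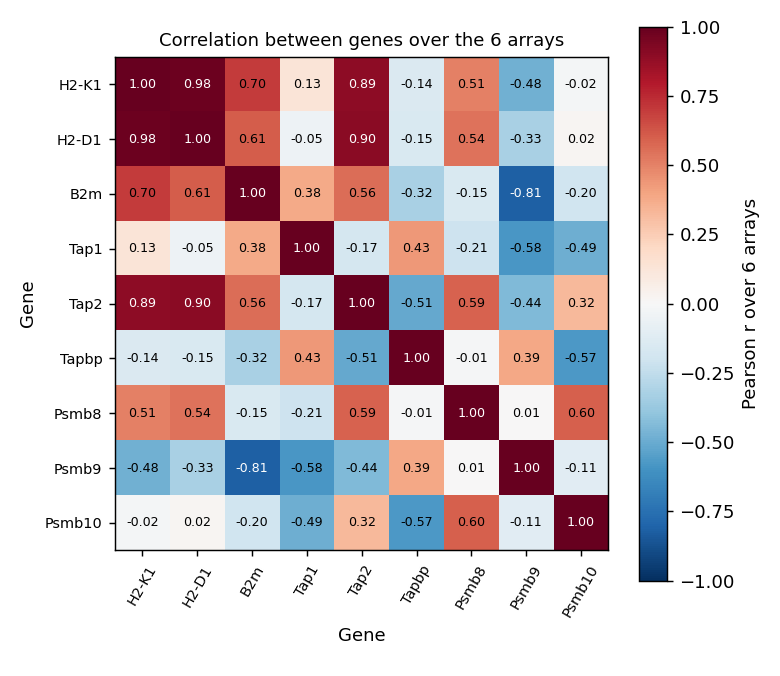
Pearson r over the 6 arrays between each pair of the 9 measured class I genes, each read by its probe set of highest mean (both axes, gene; colour and printed value, r). *H2-K1*, *H2-D1* and *Tap2* form a block at 0.89 to 0.98, and *Tap1* stands outside it at -0.17 to 0.13.

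The regulators of class I transcription were listed as 30 genes, of which 22 were tested. None passed the limma test, and 4 had an unadjusted p under 0.05, against 8.86% of all probe sets. In arrays labelled SCL-LMO1, 14 had a lower mean, against 50.2% of all, and 11 did with arrays centred on their medians, against 41.8%. The median difference was -0.046, at -0.13 when normalized once more and 0.0024 when centred. *Irf7*, a factor that amplifies type I interferon responses, measured 7.73, 7.04 and 7.29 against 7.68, 8.24 and 8.39 (difference -0.75, SE 0.23, limma adjusted p = 0.421). The Y box binding subunits *Nfya* and *Nfyb* differed by 0.63 (SE 0.23, limma adjusted p = 0.487) and 0.57 (SE 0.25, limma adjusted p = 0.561). The groups overlapped in these 3. Of the 22, *Irf9* (-0.43, SE 0.17) and *Ifngr2* (-0.32, SE 0.15) were lower in every array labelled SCL-LMO1 (2 of 22, against 5.82% of all probe sets). *Rfx5* (0.32, SE 0.16) and *Socs1* (0.17, SE 0.14) were higher in every one (2 of 22, against 7.36%).

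Of 27 interferon-stimulated genes listed, 22 were tested, 0 passed the test and 3 had an unadjusted p under 0.05, against 8.86% of all probe sets. All 22 had a lower mean in arrays labelled SCL-LMO1, against 50.2% of all probe sets. With arrays centred on their medians 20 did, but only 16 did without control 3. The median difference of -0.28 became -0.087 without control 3. *Ifit3*, an antiviral effector, measured 6.47, 5.87 and 6.51 against 6.01, 6.54 and 8.72 (difference -0.81, SE 0.58). *Ifit1* reached 8.23 in control 3 against at most 6.71 elsewhere (difference -0.69, SE 0.39), and *Iigp1*, an interferon-inducible GTPase, differed by -0.63 (SE 0.31, limma adjusted p = 0.587). The mean over the measured genes of the list was 8.42 in control 3 and between 7.50 and 7.78 in the other 5 arrays. Control 3 was thus the highest array for the interferon list and for *Tap1*, and the lowest for *Tap2* and for the mean of the heavy chain probe sets.

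**Figure D5:**
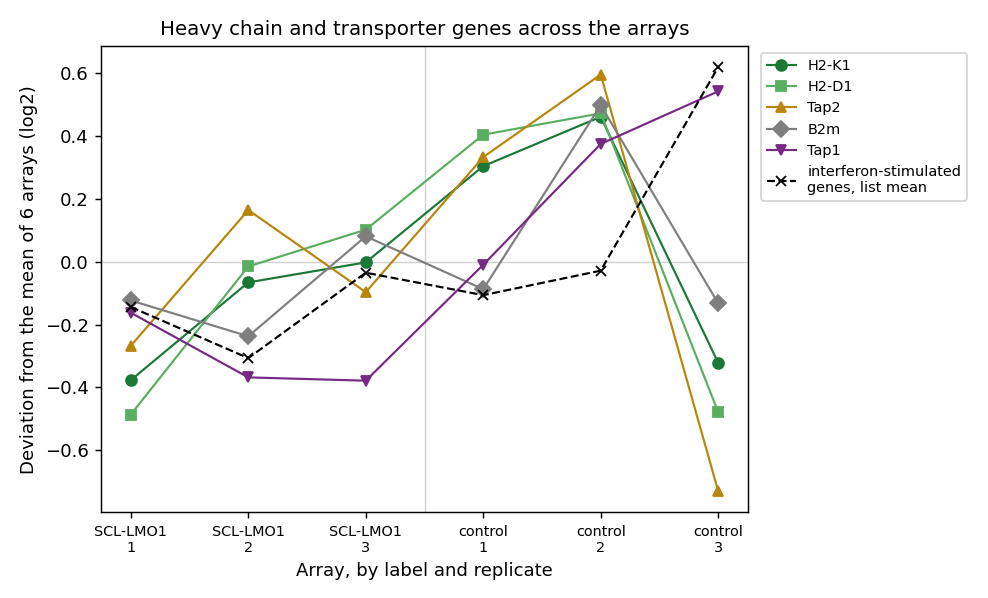
Deviation of log2 expression from the mean of the 6 arrays (y axis) in each array (x axis, label and replicate) for *H2-K1*, *H2-D1*, *Tap2*, *B2m* and *Tap1*, and for the mean of the 22 tested interferon-stimulated genes (dashed). In control 3 the interferon list (0.62) and *Tap1* are high while *H2-K1*, *H2-D1* and *Tap2* are low.

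No listed marker of another cell type passed the limma test. *Cpa3*, a mast cell gene outside the lists, did (-2.53, limma adjusted p = 2.1e-04). Some lists had values that parted by label, and their part in the class I values was not tested. The range given for a list is that of its array means over all measured genes, with those under the filter. Of 6 tested B cell markers, *Ms4a1* (-0.77, SE 0.22) and *Cd79a* (-0.64, SE 0.14) were lower in every array labelled SCL-LMO1 (2 of 6, against 5.82% of all probe sets), while *Cd79b* (0.0082) and *Vpreb1* (0.14) did not have lower means, the mean of the list ran from 5.19 to 5.40 against 5.51 to 5.68, and *Pax5* and *Ebf1* were under the filter. Of 12 tested neutrophil markers, 7 were higher in every array labelled SCL-LMO1 (against 7.36% of all probe sets), led by *S100a8* (2.09, SE 0.34, limma adjusted p = 0.110), and the list ran from 6.48 to 7.26 against 5.54 to 6.21. Class II, macrophage and dendritic cell markers, which come from cells rich in class I, overlapped at 6.70 to 7.06 against 6.74 to 7.01, although *Lyz2* differed by 0.74 (SE 0.23). Of the 4 tested double and single positive thymocyte markers, *Klf2* (-0.53, SE 0.18) and *Cd4* (-0.26, SE 0.15) were lower in every array labelled SCL-LMO1 (2 of 4, against 5.82%). The mean over the 8 measured genes of this list, with those under the filter, ran from 5.37 to 5.53 against 5.61 to 5.71. Of 11 tested markers of immature thymocytes, *Ptcra* was the only one to pass the test, and *Rag1* differed by 0.97 (SE 0.23). With *Rag2* (0.82, SE 0.23), they were higher in every array labelled SCL-LMO1 (3 of 11, against 7.36%). Higher means were found for 9 of the 11 and lower means for 2, with a median difference of 0.13. The list overlapped at 9.25 to 9.61 against 9.02 to 9.36. NK and innate lymphoid markers ran from 6.70 to 6.93 against 6.57 to 6.79. Of the 10 tested, *Gzma* (0.58), *Klrd1* (0.50) and *Tbx21* (0.29) were higher in every array labelled SCL-LMO1 (3 of 10, against 7.36%). *Klrk1* (-0.11) was lower in every one (1 of 10, against 5.82%). Stromal markers ran from 5.78 to 6.11 against 5.80 to 5.99. Of the 10 tested, *Ccl25* (0.47) was higher in every array labelled SCL-LMO1 and *Pecam1* (-0.49) lower (1 of 10 each, against 7.36% and 5.82%). *Epcam* (0.57) overlapped. Erythroid markers ran from 6.089 to 6.66 against 5.89 to 6.090, with *Slc4a1* at a difference of 1.07 (SE 0.42, limma adjusted p = 0.499).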

How the data were processed

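RNA of 6 thymocyte samples was hybridized to 1 array each. The authors summarized the probes with RMA from the affy package (versions not given in the sources used here), and log2 values were deposited for every probe set. The methods also name a MAS5 filter on absent probe sets, which these values do not carry. Probe sets were named from the platform annotation, where 20393 name 1 gene and 691 several.

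Groups came from the sample labels. Probe sets at or above the 40th percentile of the array in at least 3 of the 6 arrays were tested (13776, Affymetrix controls left out) with limma 3.58.1 in R 4.3.3, without covariates, and p-values were adjusted by Benjamini-Hochberg over all of them. The number of arrays limits the precision. Alternatives were other filters, normalizations, variance models, blocks and summaries, each array left out, and rank products (9 pairwise differences, 100 permutations, pfp under 0.1, and under 0.01 added later), the kind of test that the methods name. The scripts were tested on simulated data.

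The members, lists and tests were chosen with earlier results of these data known. A listed gene was read by its probe set of highest mean. Named genes were all members, the 3 genes of each list with the largest differences or fewer, any that passed, and the 5 most like the members. *Tapbpl*, *Psmb5*, *Pax5*, *Ebf1*, *Cd8a*, *Cd8b1*, *Cd79b*, *Vpreb1*, the sex genes and the shared probe sets were named after their values were seen. So were *Irf9*, *Ifngr2*, *Rfx5*, *Socs1* and *Klrk1*.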

Additional observations from a re-analysis of the deposited data

How the results depend on the processing

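Over 19 alternatives the 18 tested class I probe sets gave 315 values, of which 306 kept their direction and their side of the threshold. This count is in large part fixed in advance. Rank products, the other filters, the trend and robust variance model and the replicate block, among others, leave a difference unchanged, so its direction could not turn. No class I probe set was called in the main fit, so none could lose a call. The 1 value that came to pass the test was *Tap1* with array weights (-0.69, limma adjusted p = 0.0374), so 1 class I probe set was called with array weights and 0 under every other alternative. Over the alternatives other than rank products, the adjusted p of *Tap1* ran from 0.0374 to 0.9998. Directions turned in 8 values, all of small differences: without control 2, both *B2m* probe sets (0.017 and 0.040), *H2-D1* 1426324_at (0.041) and *Tap2* (0.13), without control 1, *H2-D1* 1426324_at (0.12), *Tap2* (6.6e-04) and *Psmb8* (0.054), and normalized once more, *Psmb10* (-0.086). With each array left out in turn, the *B2m* probe sets ran from -0.30 to 0.017 and from -0.26 to 0.040, *H2-D1* 1426324_at from -0.67 to 0.12, *Tap2* from -0.53 to 0.13 and *Psmb8* from -0.16 to 0.054, the lowest values all without control 3. Over the whole array 14 probe sets were called, 360 with array weights, 110 by rank products at a pfp under 0.1, 32 at a pfp under 0.01 (the threshold that the study states, added after the data were seen), and between 5 (without control 2) and 14 with an array left out, with 7 without SCL-LMO1 2 or SCL-LMO1 3. Array weights also moved the split of calls, from 7 higher and 7 lower to 274 higher and 86 lower, and normalization once more to 7 and 11. With the replicate number as a replicate block 8 were called, and no class I probe set, but same-numbered arrays did not deviate together (r of -0.63, 0.05 and -0.38), so they share a number only. The causes were not tested. With 3 arrays in each group, even the *Tap1* difference of -0.61 did not pass the limma test, and the 95% intervals of single class I probe sets reached down to -0.999 (*Tap1*).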
